A study of Mus musculus with 12 samples.

Results

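The alpha and beta tubulin isotypes described here were 10 genes, the 4 alpha tubulins Tuba1a, Tuba1b, Tuba1c and Tuba4a and the 6 beta tubulins Tubb2a, Tubb2b, Tubb3, Tubb4b, Tubb5 and Tubb6, out of 55487 Ensembl genes in a table of raw read counts. They were selected by matching the Ensembl identifiers of the table to these symbols. The counts came from 12 samples of poly(A)-selected RNA from mesenchymal stromal cells (MSCs), adherent fibroblast-like cells grown from the femoral bone marrow of young female wild-type C57BL/6 mice, as primary cultures expanded over several passages. Untreated cells formed the control group (4 samples, named Negative in the labels), 4 samples received 50 μM A1 for 6 h, and 4 samples received 50 μM A1 with 1 mg/mL ovalbumin (OVA, the egg white albumin used as model antigen) for 6 h. A1 is a variant of the Accum molecule, which the study used to turn MSCs into cells that present captured antigen. Treatment began once the cultures were past 80% confluency in serum-containing AMEM, and the text for the A1 + OVA medium also names insulin without a dose. A group with OVA alone and a vehicle control are not among the samples, so that an effect of OVA by itself and an effect of the diluent cannot be told apart from those of the treatments. The comparisons asked how the tubulin mRNAs differed between treated and control MSCs, and whether OVA together with A1 changed them relative to A1 alone.

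Microtubules are hollow polymers of alpha and beta tubulin heterodimers, and they carry vesicle and organelle traffic, shape the cell and build the mitotic spindle. Mammals encode several isotypes of each subunit, which are nearly identical in their globular body and differ mainly in a short acidic C-terminal tail that faces the outside of the polymer and is the site of polyglutamylation, detyrosination and the binding of many motors. New tubulin chains are handed by prefoldin to the chaperonin CCT and then to the folding cofactors TBCA to TBCE, which assemble the dimer. When free dimer accumulates, the factor TTC5 recognizes the amino terminus of the chain on the ribosome and recruits, through SCAPER, the CCR4-NOT deadenylase, which removes the translated tubulin mRNA.

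The beginning of the coding sequence is shown because the first 4 codons encode the tetrapeptide read in this autoregulation. The sequences are coding-strand DNA letters of GENCODE M21 transcripts (build GRCm38), from the start codon onward, with the first 12 bases in capitals.
Tuba1a: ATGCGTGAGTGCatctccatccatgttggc
Tuba1c: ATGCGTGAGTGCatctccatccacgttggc
Tuba4a: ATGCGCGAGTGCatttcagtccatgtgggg
Tubb2a: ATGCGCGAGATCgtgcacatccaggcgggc
Tubb5: ATGAGGGAAATCgtgcacatccaggccgga
Tuba1a and Tuba1c, which changed in opposite directions, were identical over these 12 bases and differed at 1 of the 30. Tuba4a differed from Tuba1a at 1 of the 12 bases, and Tubb5 from Tubb2a at 3 of the 12. These differences are synonymous, so that the tetrapeptide is the same within each of these pairs. The last 60 coding bases, which encode the tail, are shown for Tuba1c, Tuba4a, Tubb2a, Tubb5 and Tubb2b, the closest relative of Tubb2a, with the stop codon in capitals.
Tuba1c: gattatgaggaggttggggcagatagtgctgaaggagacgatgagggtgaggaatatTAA
Tuba4a: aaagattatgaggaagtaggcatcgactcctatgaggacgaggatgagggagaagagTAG
Tubb2a: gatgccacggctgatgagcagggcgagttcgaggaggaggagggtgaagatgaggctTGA
Tubb2b: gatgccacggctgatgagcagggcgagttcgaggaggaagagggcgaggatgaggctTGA
Tubb5: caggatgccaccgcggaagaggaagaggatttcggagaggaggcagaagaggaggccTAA
Tubb2a and Tubb2b differed at 3 of these 60 bases, without shifting the sequences against each other. Tuba1c has acidic codons (glutamate or aspartate) at 10 of the last 19 codons before the stop, and Tuba4a, Tubb2a and Tubb5 at 11. In Tuba1c the last codon before the stop is a tyrosine codon, the residue removed by detyrosination and restored by the ligase encoded by Ttl, whereas Tuba4a ends on a glutamate codon.

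Tuba1a and Tuba1c lie in the same cluster on chromosome 15, on opposite strands. Their upstream sequences are shown because these 2 mRNAs moved in opposite directions. The 250 bases before the RefSeq start (build GRCm38.p6) are printed 5′ to 3′ on the strand of the gene, with CCAAT and GGGCGG on either strand in capitals. The 2 windows are not alike in position. The GENCODE gene of Tuba1a begins at 98953703 on the minus strand, inside its window, so that both capitalized matches lie within the annotated gene. The Tuba1c window ends directly before its GENCODE gene start at 99029891.
Tuba1a, chr15:98953502-98953751, minus strand: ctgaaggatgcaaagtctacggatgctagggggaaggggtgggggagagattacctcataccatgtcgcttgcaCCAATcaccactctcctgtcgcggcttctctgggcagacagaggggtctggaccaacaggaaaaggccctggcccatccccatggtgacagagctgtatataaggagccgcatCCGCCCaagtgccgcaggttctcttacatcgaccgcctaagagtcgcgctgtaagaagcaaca
Tuba1c, chr15:99029641-99029890, plus strand: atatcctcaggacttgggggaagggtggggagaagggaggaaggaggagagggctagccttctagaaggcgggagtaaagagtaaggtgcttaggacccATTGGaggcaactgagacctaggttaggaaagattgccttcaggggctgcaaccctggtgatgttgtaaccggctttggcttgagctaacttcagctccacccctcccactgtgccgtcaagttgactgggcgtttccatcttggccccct
RefSeq promoters of 300 bases (250 before and 50 after the start) were read for 8 of the 10 genes, all except Tubb2b and Tubb6. The promoter of Tuba4a (75219245 to 75219544) lies wholly inside its GENCODE gene, which reaches 75219865. CCAAT was found on either strand in 5 of the 8 promoters, against 37.4% of all 32851 promoters. GGGCGG was found in 7 of the 8 against 35.7%, with Tuba1c as the exception. TATAAA was found in 2 of the 8 against 13.6%, and TGANTCA, a palindrome, in 0 of the 8 against 7.81%. The matches in capitals do not overlap, and a match describes the letters only.

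In GRCm38 the 3 genes Tuba1b (98931425 to 98934565), Tuba1a (98949837 to 98953703) and Tuba1c (99029891 to 99038110) form a cluster on chromosome 15, and Tubb2a (34074274 to 34078007) and Tubb2b (34126748 to 34130466) are neighbours on chromosome 13. Tuba4a lies on chromosome 1 (75214228 to 75219865), Tubb4b on chromosome 2 (25222160 to 25224702), Tubb3 on chromosome 8 (123411424 to 123422015), Tubb5 on chromosome 17 (35833921 to 35838306) and Tubb6 on chromosome 18 (67390717 to 67402749). Coding identity was 98.3% between Tuba1a and Tuba1b, 97.1% between Tuba1a and Tuba1c and 96.5% between Tubb2a and Tubb2b, compared with 55.8% to 57.7% between any alpha and any beta gene. Of all windows of 100 bases in its transcript with the longest coding sequence, Tuba1a shared 65.1% with transcripts of other genes, Tuba1b 69.5%, Tuba1c 53.4%, Tubb2a 36.9%, Tubb2b 27.7% and Tubb4b 29.2%, the last mostly with its pseudogene Tubb4b-ps1. Tuba4a, Tubb3, Tubb5 and Tubb6 shared none. A read from a shared window cannot be assigned to 1 gene by its own sequence, although its mate may lie in sequence that is not shared. How the counting treated such reads is not given in the sources used here. The counts of Tuba1a, Tuba1b, Tuba1c, Tubb2a, Tubb2b and Tubb4b are therefore uncertain between close copies. The readthrough gene Gm49450, on the same strand, covers 473 exon bases of Tuba1a (26.2%) and 426 of Tuba1b (22.7%) and was listed with 0 counts in all samples. Stk16 overlaps 1379 exon bases of Tuba4a (37.3%) on the opposite strand and had 582 to 729 counts per sample, and the counting was strand-specific.

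Counts summed to between 13702348 and 16881995 per sample, with the A1 group lowest (13702348 to 14347870). Levels are given as CPM (counts scaled to library size) after TMM normalization, and as CPM per kilobase of exon where genes are compared with each other. Differences are log2 fold changes from edgeR's quasi-likelihood test over 11314 protein-coding genes, and a gene is said to rise or fall when its Benjamini-Hochberg adjusted p was under 0.05. The labelled cell type was checked against markers. All 11 MSC markers had counts, although Thy1 did not exceed 17 and Nt5e 14 in any sample. Their summed level was 9567 to 9989 CPM in control, 7914 to 8270 in A1 and 8056 to 8300 in A1 + OVA samples. Of 10 tested markers, 2 rose and 4 fell with A1, beside 31.7% and 31.1% of all tested genes. Cd44 rose from 175 CPM in control to 458 in A1 samples, and Itgb1 from 1451 to 2225. Cxcl12 fell from 3910 to 1514 CPM, Pdgfra from 247 to 125, Vcam1 from 226 to 117 and Ly6a from 35.1 to 23.3. Blood cell markers summed to 1.88 to 3.02 CPM over all samples, with Cd3e at 0 in all of them, and endothelial markers to 0.218 to 0.916. These marker differences moved with the treatments and their part in the tubulin results was not tested. In RNA from whole cultures, fewer cells with a transcript and less transcript per cell cannot be told apart. The labels do not say whether the 4 samples of a group were separate cultures or donors, so that the p-values measure only the spread between these samples, which may be technical.

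Control MSCs expressed mainly Tubb5 among beta tubulins and Tuba1a among alpha tubulins. On the scale of CPM per kilobase, Tubb5 had a mean level of 409 ± 17.97 (SD, n = 4), Tuba1a 128 ± 7.47, Tubb4b 82.7 ± 5.68, Tubb6 75.5 ± 4.59, Tuba1b 50.7 ± 2.13, Tubb2a 45.9 ± 2.99, Tuba1c 34.9 ± 2.52 and Tuba4a 12.4 ± 0.823. Tubb3, the isotype characteristic of neurons, was at 0.255 ± 0.0364 and Tubb2b at 0.0808 ± 0.0396. In this order Tubb4b and Tubb6 overlapped in their samples, and the other neighbours did not. With A1 the order of levels per kilobase was Tubb5 (473), Tubb6 (122), Tuba1a (108), Tubb4b (106), Tuba1c (64.0), Tuba1b (60.5), Tubb2a (38.4) and Tuba4a (18.1), where Tuba1a overlapped Tubb4b and Tuba1c overlapped Tuba1b. With the full exon length, Tubb6 thus stood at rank 4 in control and at rank 2 in A1-treated cells, and Tuba1c at ranks 7 and 5. When the exon length covered by Gm49450 was left out, the control levels per kilobase were 173 for Tuba1a and 65.6 for Tuba1b. In A1 samples they were then 146 and 78.2. Tuba1a thus stayed above Tubb6 (122) and Tuba1b above Tuba1c (64.0), so that the A1 ranks of Tubb6 and Tuba1c depend on this length. The 10 genes together took 0.211% to 0.240% of all counts in control, 0.250% to 0.267% in A1 and 0.244% to 0.253% in A1 + OVA samples.

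**Figure D1:**
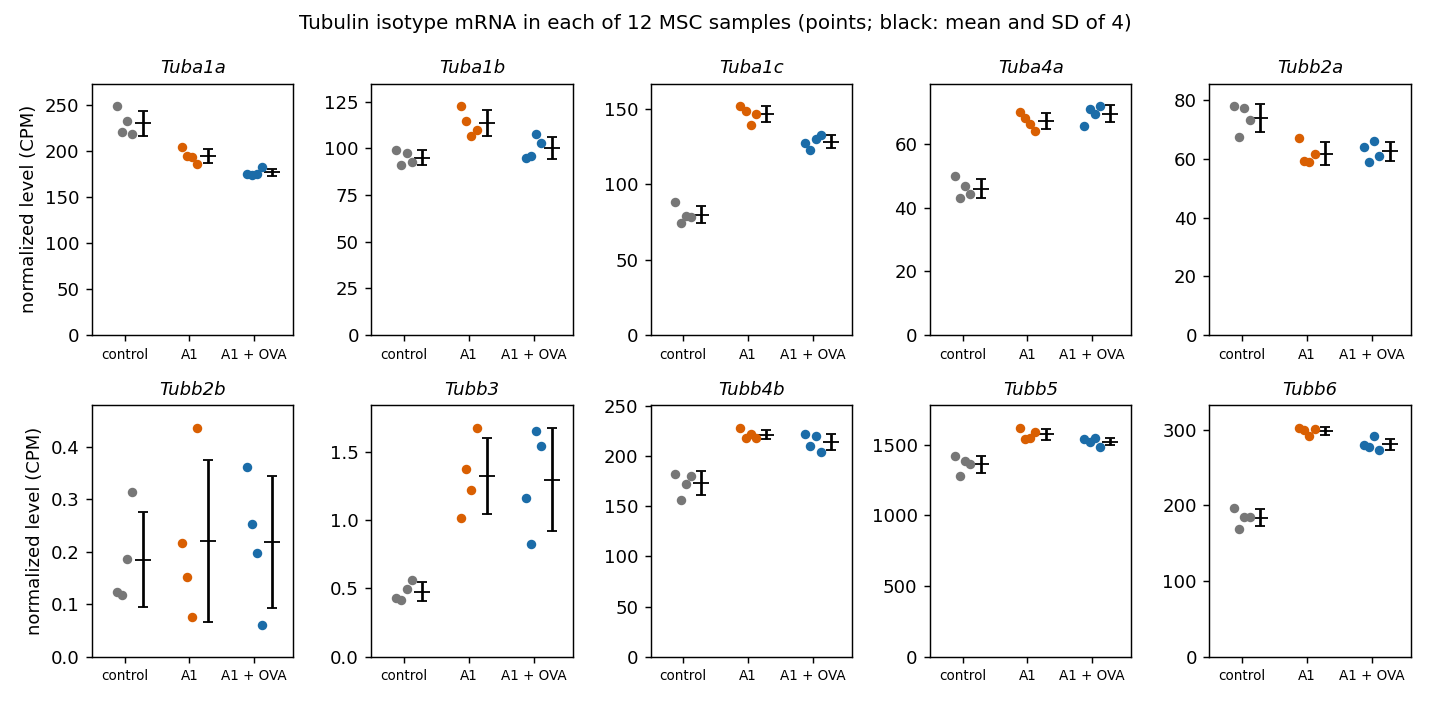
Level of each of the 10 tubulin genes (vertical axes, CPM, each starting at 0 with its own scale) in the 12 samples, by group (horizontal axis); points are samples and black marks give the mean and SD of 4. Tuba1a and Tubb2a lie lower in both treated groups than in control, Tuba1c, Tuba4a, Tubb3, Tubb4b, Tubb5 and Tubb6 lie higher, and Tubb2b stays under 0.5 CPM.

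With A1, 9 of the 10 genes passed the filter on low counts and all 9 changed, 7 of them higher and 2 lower than in control (edgeR). Tubb3 passed that filter only through its treated samples, with 7 to 9 counts in control and 14 to 23 in A1 samples. Its rise is thus not independent of the filter, and without Tubb3 8 members were called. Over all tested genes, 31.7% rose and 31.1% fell in this comparison. The median log2 fold change of the 9 genes was 0.358, and that of all tested genes was -0.00172. In 4 of the 9, Tuba1c, Tuba4a, Tubb3 and Tubb6, the absolute log2 fold change was at least 0.5, which 21% of all tested genes reached together with the adjusted p. The A1 and control samples did not overlap in any of the 9, as in 54.4% of all tested genes. Tubb2b was not tested, with 1 to 6 counts in each sample.

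The alpha tubulins did not move together. Tuba1a, the leading alpha isotype of these cells and of developing neurons, had 248, 221, 232 and 219 CPM in the control samples, 204, 194, 193 and 185 in the A1 samples and 175, 173, 175 and 183 in the A1 + OVA samples. The 3 groups did not overlap, and the control samples were the highest. Tuba1a fell by 0.25 on the log2 scale with A1 (SE 0.042, adjusted p = 3.54e-05 in edgeR) and by 0.38 with A1 + OVA (adjusted p = 1.01e-07).

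Tuba1c, a broadly expressed isotype of the same cluster, went the other way. Its level was 87.9, 74.4, 78.9 and 78.1 CPM in control, 151, 148, 139 and 146 in A1 and 128, 122, 130 and 132 in A1 + OVA samples. Every treated sample was above every control sample, and the A1 samples were the highest. Tuba1c rose 1.83-fold with A1 (log2 fold change 0.87, SE 0.047, adjusted p = 6.15e-13 in edgeR), the largest increase among the members with more than 25 counts in a sample, and 1.60-fold with A1 + OVA (log2 fold change 0.68, adjusted p = 4.52e-11).

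Tuba1b, the remaining, broadly expressed gene of the cluster, had 99.1, 90.8, 97.7 and 92.5 CPM in control, 122, 115, 106 and 110 in A1 and 95.02, 95.6, 107 and 103 in A1 + OVA samples. The A1 samples were above the control samples, whereas the A1 + OVA samples overlapped them. It rose with A1 (log2 fold change 0.25, SE 0.049, adjusted p = 0.000135 in edgeR). With A1 + OVA its log2 fold change against control was 0.08 with an interval of -0.02 to 0.18 (adjusted p = 0.185), and this was the only tested member that did not pass in that comparison.

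Tuba4a, whose chain ends without the terminal tyrosine, had the lowest alpha level per kilobase. Its samples were at 49.9, 43.0, 46.6 and 44.3 CPM in control, 70.1, 68.1, 66.3 and 64.1 in A1 and 65.7, 70.9, 69.3 and 71.7 in A1 + OVA. Both treated groups were above control and overlapped each other. Tuba4a rose 1.46-fold with A1 (log2 fold change 0.55, SE 0.051, adjusted p = 6.15e-09 in edgeR) and 1.51-fold with A1 + OVA (adjusted p = 1.44e-09).

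The opposite movements left the summed level of the chromosome 15 cluster less changed than its members. Tuba1a, Tuba1b and Tuba1c together had a mean of 405 CPM in control (386 to 435), 454 in A1 (438 to 478) and 405 in A1 + OVA samples (391 to 418). The A1 and control samples did not overlap in this sum, and the A1 + OVA and control samples did. Of the alpha tubulin level per kilobase, Tuba1a made up 56.6% ± 0.444 in control, 43.0% ± 0.784 in A1 and 43.3% ± 0.784 in A1 + OVA. Tuba1c made up 15.5% ± 0.394, 25.6% ± 0.597 and 24.8% ± 0.349, and Tuba4a 5.50% ± 0.0737, 7.25% ± 0.110 and 8.29% ± 0.305. The share of Tuba1b was 22.5% ± 0.483, 24.2% ± 0.571 and 23.6% ± 0.921. With the length shared with Gm49450 left out, the share of Tuba1a was 60.5%, 47.6% and 48.0% in the 3 groups. Because reads of the 3 genes can be lost or exchanged where their sequences are identical, these shares describe the counted reads.

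**Figure D2:**
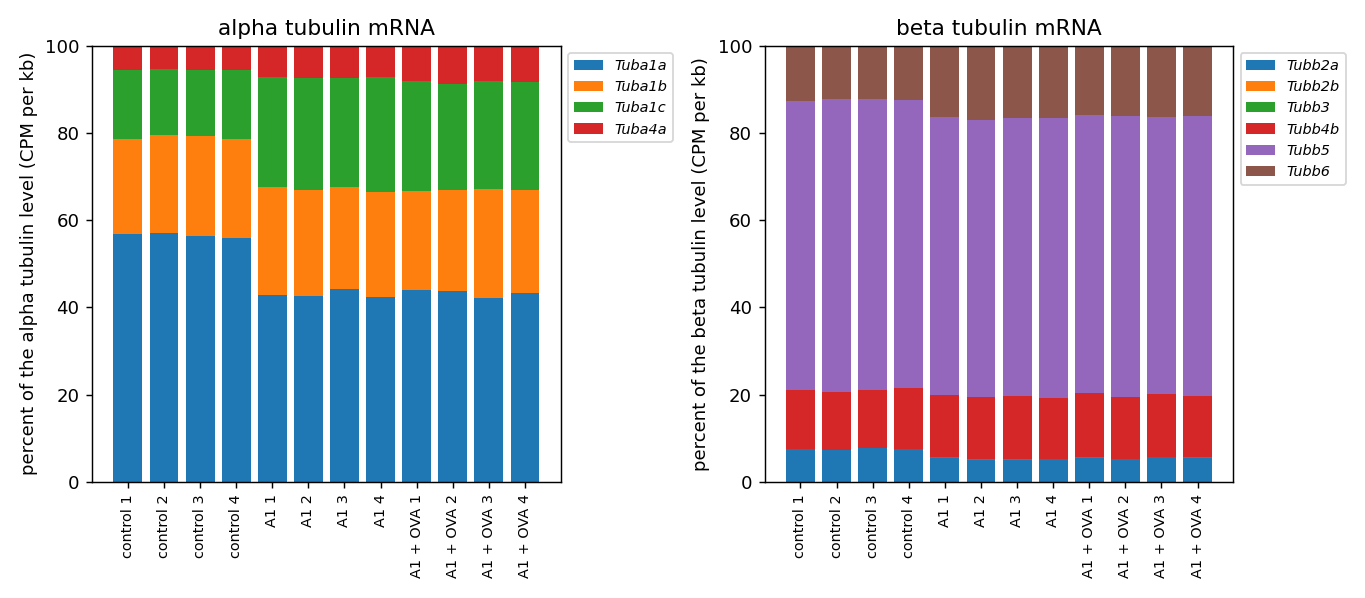
Share of each isotype (vertical axes, percent) in the summed level per kilobase of the alpha tubulins (left) and the beta tubulins (right) in each of the 12 samples (bars). Tuba1a takes 56.0% to 57.0% of the alpha level in control samples and 42.2% to 44.1% in treated samples, and Tubb5 takes 63.5% to 67.3% of the beta level throughout.

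Among the beta tubulins, Tubb5 (the mouse counterpart of TUBB, the main beta isotype of dividing cells) had the highest level and a small increase. Its samples were at 1419, 1279, 1387 and 1360 CPM in control, 1616, 1537, 1544 and 1593 in A1 and 1536, 1520, 1544 and 1485 in A1 + OVA. All treated samples were above the highest control sample. Tubb5 rose 1.16-fold with A1 (log2 fold change 0.21, SE 0.037, adjusted p = 5.67e-05 in edgeR) and 1.12-fold with A1 + OVA (log2 fold change 0.16, adjusted p = 0.000908). The median absolute log2 fold change of all tested genes was 0.229 with A1 and 0.204 with A1 + OVA, so that Tubb5 moved less than the typical tested gene in both.

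Tubb6, a divergent isotype known from non-neuronal and regenerating muscle cells, changed most among the abundant beta tubulins. It had 197, 169, 185 and 185 CPM in control, 302, 299, 291 and 301 in A1 and 280, 277, 291 and 273 in A1 + OVA samples. The groups did not overlap, although the lowest A1 sample and the highest A1 + OVA sample were both at 291 CPM. Tubb6 rose 1.62-fold with A1 (log2 fold change 0.70, SE 0.041, adjusted p = 2.85e-12 in edgeR) and 1.53-fold with A1 + OVA (log2 fold change 0.61, adjusted p = 3.17e-11).

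Tubb4b, the isotype shared by cytoplasmic microtubules and cilia, also rose. Its level was 182, 156, 172 and 180 CPM in control, 228, 218, 222 and 218 in A1 and 222, 209.8, 219.7 and 204 in A1 + OVA samples. Its treated samples were all above its control samples. The log2 fold change was 0.36 with A1 (SE 0.045, adjusted p = 5.12e-07 in edgeR) and 0.31 with A1 + OVA (adjusted p = 4.33e-06).

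Tubb2a was the only tested beta tubulin that fell. It had 77.9, 67.4, 77.2 and 73.4 CPM in control, 67.3, 59.2, 59.0 and 61.6 in A1 and 64.2, 58.9, 65.95 and 61.1 in A1 + OVA samples. The highest A1 sample lay just under the lowest control sample. Tubb2a fell by 0.26 on the log2 scale with A1 (SE 0.055, adjusted p = 0.000319 in edgeR) and by 0.24 with A1 + OVA (adjusted p = 0.000623). Its near copy Tubb2b had 2, 2, 3 and 5 counts in control, 3, 2, 1 and 6 in A1 and 5, 4, 3 and 1 in A1 + OVA samples, too few to show a difference at this depth.

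Tubb3 was close to the limit of counting. It had 7, 7, 8 and 9 counts in control, 14, 18, 16 and 23 in A1 and 16, 13, 25 and 25 in A1 + OVA samples. The treated samples were all above the control samples. Tubb3 passed the filter on low counts only through the treated samples, so that this order is not independent of the filter. The log2 fold change was 1.46 with A1, with an interval of 0.85 to 2.06 (adjusted p = 0.000193 in edgeR), and 1.43 with A1 + OVA (adjusted p = 0.000209). The largest fold among the members thus belonged to an isotype that made up 0.0416% of the beta level per kilobase in control and 0.0956% with A1. The 8 other neuron markers summed to 0.866 to 1.19 CPM in control, 0.289 to 0.764 in A1 and 0.132 to 0.678 in A1 + OVA samples, with Rbfox3 and Elavl3 at 0 in all 12 samples. Map2, with at most 11 counts in a sample, made up most of the difference in this sum (0.582 CPM in control, 0.150 in A1 and 0.0836 in A1 + OVA), and Snap25 was at 0.0753, 0.0182 and 0.112 CPM. None of these markers passed the filter on low counts, and their part in the result was not tested.

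Of the beta tubulin level per kilobase, Tubb6 made up 12.3% ± 0.182 (SD, n = 4) in control, 16.5% ± 0.260 in A1 and 16.1% ± 0.185 in A1 + OVA samples, and Tubb2a 7.49% ± 0.162, 5.18% ± 0.211 and 5.44% ± 0.189. Tubb5 made up 66.7% ± 0.518, 63.9% ± 0.248 and 64.0% ± 0.431. The ratio of the summed beta to the summed alpha level per kilobase was 2.72 ± 0.0920 in control, 2.96 ± 0.0931 in A1 and 3.16 ± 0.128 in A1 + OVA. The counts of the alpha genes hold more shared sequence than those of the beta genes, so that this ratio is one of counted reads and not of mRNA molecules.

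With A1 + OVA against control, 6 members rose and 2 fell (Tuba1a and Tubb2a), with a median log2 fold change of 0.309 against 0.00355 over all tested genes. Tubb3, which passed the filter only through treated samples, is among the 6, and without it 7 members were called. Over all tested genes 29.7% rose and 27.9% fell. The log2 fold change was at least 0.5 in the same 4 members as with A1, a size that 17.7% of all tested genes reached with the adjusted p, and 8 members did not overlap with control, as in 49.4% of all tested genes. This comparison shares its 4 control samples with that of A1, and the values of each are set side by side above for that reason.

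**Figure D3:**
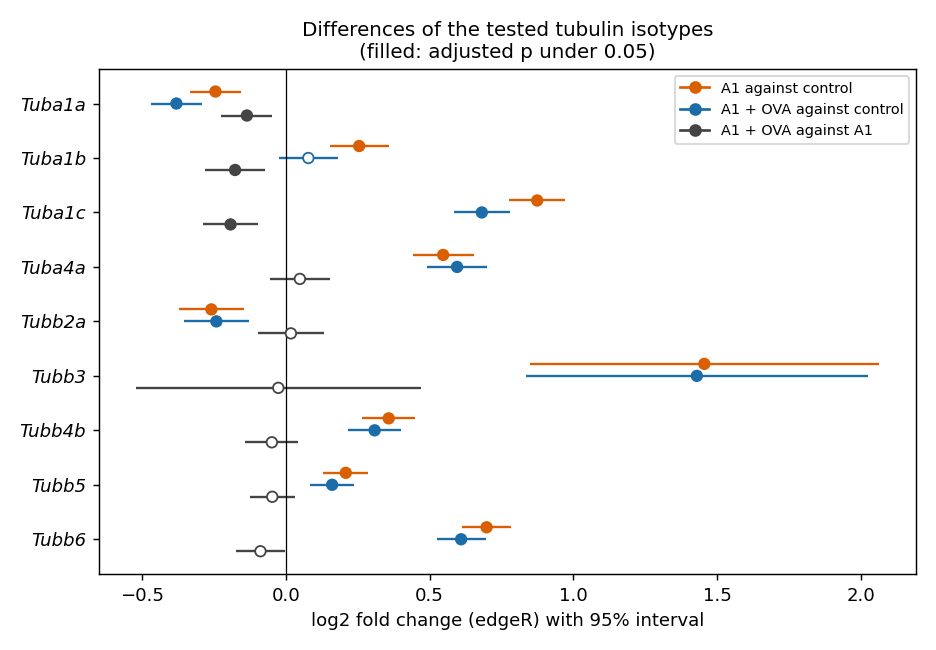
Log2 fold change (horizontal axis) with its 95% interval for the 9 tested tubulin genes in the 3 comparisons, from edgeR; filled points had an adjusted p under 0.05. Tuba1c, Tuba4a, Tubb3 and Tubb6 lie beyond 0.5 in both comparisons with control, Tuba1a and Tubb2a lie under 0, and the points of A1 + OVA against A1 lie between -0.19 and 0.05.

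Adding OVA to A1 was accompanied by small decreases in the alpha tubulins of the chromosome 15 cluster. Relative to A1 alone, Tuba1a fell by 0.14 (adjusted p = 0.0402), Tuba1b by 0.18 (adjusted p = 0.0217) and Tuba1c by 0.19 (adjusted p = 0.00754) on the log2 scale in edgeR. These were 3 of the 9 tested members, beside 6.81% of all tested genes that fell and 6.05% that rose. The number of members that rose was 0 in edgeR, also at an unadjusted p under 0.05, and 0 in DESeq2. A change of at least 0.5 was seen in 0 members and in 1.2% of all tested genes. The groups did not overlap in 3 members, Tuba1a, Tuba1c and Tubb6, as in 18.1% of all tested genes. Only Tuba1c remained when A1 sample 1, A1 sample 2, A1 + OVA sample 1 or A1 + OVA sample 2 was left out, giving 1 member in each of these 4 fits. Tubb6 had a log2 fold change of -0.09 (interval -0.17 to -0.004, adjusted p = 0.159). The interval was -0.13 to 0.03 for Tubb5, -0.14 to 0.04 for Tubb4b, -0.05 to 0.15 for Tuba4a and -0.10 to 0.13 for Tubb2a. For Tubb3 it was -0.52 to 0.47, so that a difference within this range was not resolved at this depth.

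The genes whose levels followed the leading isotypes most closely over the 12 samples were taken by Pearson's r of log2 CPM, as a description. For Tuba1a they were Csrp2 (r = 0.974), a LIM-domain protein of smooth muscle and stellate cells, Mxd4 (0.972), a MAX-binding repressor, and Cdca3 (0.971), a regulator of mitotic entry. For Tubb5 they were Pfdn6 (0.984), a prefoldin subunit, Akt1 (0.980), a survival kinase, and Snrpb (0.979), a core spliceosomal protein. The 12 samples fall into treated and control samples and share their depth and scaling, which every such r contains.

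Genes of the chaperones that fold tubulin were higher with A1. CCT, the ring that folds tubulin and actin, has 8 subunit genes here, of which 7 were tested and 7 rose with A1, with 0 lower (0 also at an unadjusted p under 0.05 and in DESeq2), beside 31.7% of all tested genes that rose. Their median log2 fold change was 0.261, and 7 of 7 also rose with A1 + OVA, with a median of 0.216, beside 29.7% of all tested genes. Cct7 had 360.0 ± 6.97 CPM in control, 470.2 ± 16.1 in A1 and 453 ± 11.8 in A1 + OVA samples (log2 fold change 0.39 with A1, adjusted p = 6.3e-09 in edgeR). Cct2 had 667 ± 11.8, 843 ± 21.1 and 814 ± 27.3 CPM in the same order (log2 fold change 0.34 with A1, adjusted p = 3.98e-08). Cct6a was not tested because the annotation gives it as a processed transcript, and its mean level was 601 CPM in control and 722 in A1 samples.

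Prefoldin, the hexamer that delivers chains to CCT, rose in 5 of 6 subunits with A1, with 0 lower (0 at an unadjusted p under 0.05 and 0 in DESeq2), and in 4 of 6 with A1 + OVA, with medians of 0.298 and 0.208, where 31.7% and 29.7% of all tested genes rose. Pfdn6 had 39.3 ± 2.99 CPM in control, 52.9 ± 3.45 in A1 and 48.9 ± 2.48 in A1 + OVA samples (log2 fold change 0.43 with A1, adjusted p = 2.49e-06 in edgeR). Pfdn4 followed (log2 fold change 0.41, adjusted p = 1.04e-06), and Pfdn5, with 77.8 CPM in control and 76.6 in A1 samples, did not pass (adjusted p = 0.664). Relative to A1 alone, the CCT and prefoldin genes had medians of -0.05 and -0.07 with A1 + OVA.

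Of 7 tested genes for the cofactors that assemble the dimer, 1 rose and 3 fell with A1, beside 31.7% and 31.1% of all tested genes. These 7 genes are too few to set their counts apart from those shares. Arl2, the small GTPase of the assembly complex, fell by 0.34 (adjusted p = 0.00149), Tbcd by 0.22 (adjusted p = 0.000123) and Tbce, its partner for alpha tubulin, by 0.20 (adjusted p = 0.0165), while Tbcb, which captures alpha tubulin from CCT, rose by 0.17 (adjusted p = 0.0103), all on the log2 scale in edgeR. With A1 + OVA 1 rose (Tbcb) and 1 fell (Tbcd). Arl2 had 23.6 ± 2.20 CPM in control, 18.7 ± 1.32 in A1 and 23.1 ± 2.57 in A1 + OVA samples, and it was higher with A1 + OVA than with A1 (log2 fold change 0.31, adjusted p = 0.0207).

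Of 12 tested autoregulation genes 4 rose and 3 fell with A1, beside 31.7% and 31.1% of all tested genes. With A1 + OVA 1 rose and 5 fell, beside 29.7% and 27.9% of all tested genes. Ttc5, the reader of the tubulin amino terminus, was at 19.7 CPM in control and 17.2 in A1 samples, and it did not pass with A1 (log2 fold change -0.19, adjusted p = 0.0592 in edgeR) or with A1 + OVA (log2 fold change 0.03, adjusted p = 0.775). Scaper, the adaptor between TTC5 and the deadenylase, fell by 0.64 with A1 (SE 0.076, adjusted p = 2.35e-07), from 28.95 ± 2.61 to 18.6 ± 1.58 CPM. In A1 + OVA samples it was at 24.9 ± 1.58 CPM, 0.43 higher on the log2 scale than with A1 alone (adjusted p = 0.000963). The catalytic subunits Cnot8 and Cnot6l fell by 0.23 and 0.18 with A1, and Cnot7 rose by 0.21.

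**Figure D4:**
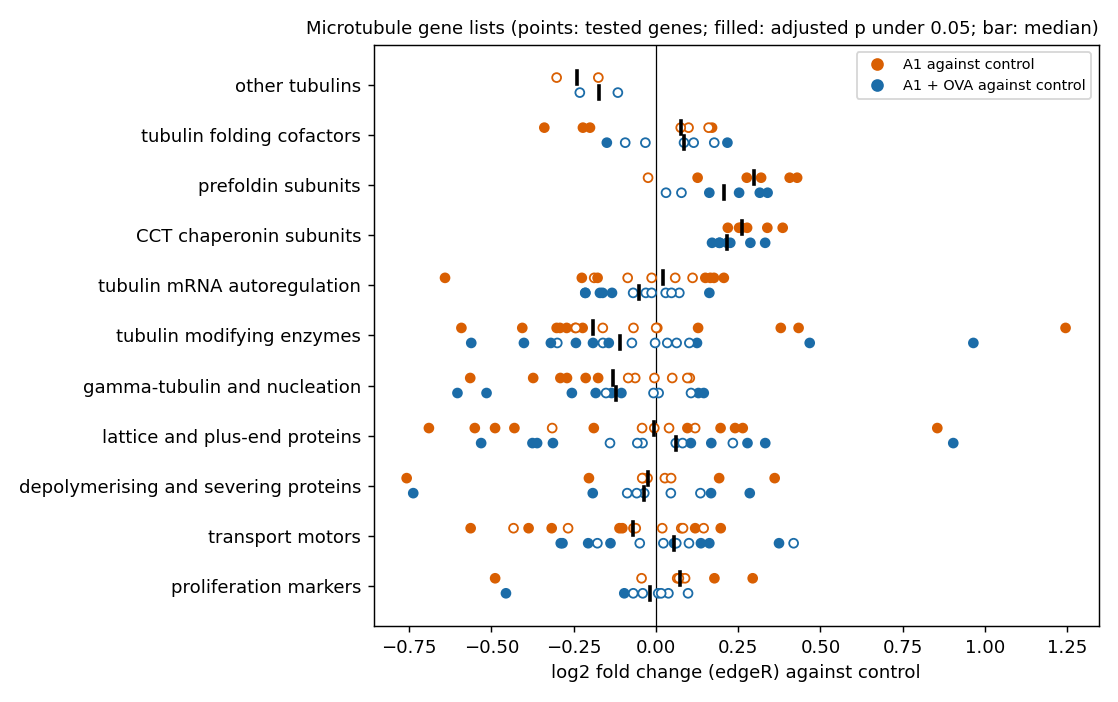
Log2 fold change against control (horizontal axis, edgeR) of every tested gene in 11 lists of microtubule and proliferation genes (vertical axis), for A1 (orange) and A1 + OVA (blue); filled points had an adjusted p under 0.05 and black bars are medians. All 7 tested CCT genes are filled and right of 0 for both treatments, and the filled points of gamma-tubulin and nucleation genes are left of 0 for A1.

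Of 16 tested enzymes that modify tubulin, on its tail or on the luminal lysine, 4 rose and 7 fell with A1, where 31.7% of all tested genes rose and 31.1% fell. With A1 + OVA 3 rose and 6 fell, where the shares of all tested genes were 29.7% and 27.9%. The medians were -0.192 and -0.108. Ttll11, a polyglutamylase, rose from 0.920 ± 0.101 to 2.19 ± 0.207 CPM with A1 (log2 fold change 1.25, adjusted p = 1.07e-05 in edgeR) at low counts of at most 34 per sample. Ttll4, an initiating glutamylase, rose by 0.43 with A1 and by 0.47 with A1 + OVA on the log2 scale (adjusted p = 3.4e-06 and 1.21e-06). Agtpbp1, the deglutamylase that shortens the chains, fell by 0.41 with A1 and by 0.24 with A1 + OVA (adjusted p = 2.51e-07 and 0.000148). Atat1, the acetyltransferase of the luminal lysine, fell by 0.59 with A1 (adjusted p = 0.00126), and with A1 + OVA its log2 fold change was -0.30 (adjusted p = 0.0655).

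Genes of the gamma-tubulin ring, which nucleates microtubules, and of its associated scaffolds were lower where they changed with A1. Of 12 tested, 6 fell and 0 rose (1 at an unadjusted p under 0.05, and 0 in DESeq2), beside 31.1% of all tested genes that fell, and the median was -0.130. With A1 + OVA 6 fell and 2 rose, beside 27.9% and 29.7% of all tested genes. Mzt2, a small ring component, fell by 0.56 with A1 and 0.51 with A1 + OVA (adjusted p = 1.11e-05 and 2.73e-05 in edgeR). Tubgcp2 fell by 0.37 with A1 and by 0.60 with A1 + OVA, and was also lower with A1 + OVA than with A1 (log2 fold change -0.23, adjusted p = 0.0185). Tubg1, gamma-tubulin itself, fell by 0.27 with A1 (adjusted p = 0.00104) from 41.9 ± 2.22 to 34.7 ± 3.35 CPM. Akap9, a scaffold of the ring at the Golgi and centrosome, fell by 0.29 with A1 (adjusted p = 0.0217), with a mean of 73.6 CPM in A1 + OVA samples against 74.0 in control.

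Of 15 tested genes for proteins that bind the lattice or the plus ends, 5 rose and 5 fell with A1, and 5 rose and 4 fell with A1 + OVA. The shares of all tested genes that rose and fell were 31.7% and 31.1% with A1, and 29.7% and 27.9% with A1 + OVA, so that these counts are near the background. Map6, the stabilizer STOP, rose from 9.76 ± 0.286 to 17.7 ± 1.18 CPM with A1 (log2 fold change 0.86, adjusted p = 2.96e-09 in edgeR) and to 18.3 ± 1.17 with A1 + OVA. Map7d3, a MAP7-family protein that recruits kinesin-1, fell by 0.69 with A1 (adjusted p = 4.06e-06). The end-binding genes Mapre3 and Mapre2 fell by 0.55 and 0.49 with A1 (adjusted p = 1.07e-05 and 1.5e-09).

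Depolymerizing and severing proteins changed in 4 of 9 tested genes with A1, 2 in each direction, with the same counts for A1 + OVA. For comparison, 31.7% of all tested genes rose and 31.1% fell with A1, and 29.7% and 27.9% with A1 + OVA. Fign, a severing enzyme, fell by 0.76 at 2.33 ± 0.532 CPM in control (adjusted p = 0.00584 in edgeR), and Spast, the severing enzyme spastin, fell by 0.20 (adjusted p = 0.000521). Kif2a, a depolymerizing kinesin, rose by 0.36 (adjusted p = 3.28e-07) and Fignl1 by 0.19 (adjusted p = 0.00216). Of 15 transport motor genes 2 rose and 5 fell with A1, and 3 rose and 4 fell with A1 + OVA, beside the same shares of all tested genes. Kif3a, a kinesin-2 subunit, fell by 0.56 with A1 (adjusted p = 8.54e-08) and by 0.29 with A1 + OVA, and was higher with A1 + OVA than with A1 alone (log2 fold change 0.27, adjusted p = 0.00689). Dctn1, the large dynactin subunit, fell by 0.39 with A1 (adjusted p = 1.97e-07), Kif1b by 0.32 (adjusted p = 1.67e-06), and Klc2 rose by 0.20 (adjusted p = 0.0316).

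Most of the remaining tubulin genes were at or near 0. Of 8 other tubulins Tuba3a and Tubal3 had 0 counts in all samples, Tuba3b, Tuba8, Tubb1 and Tubb4a had at most 3 counts in any sample, and the 2 tested genes, Tubd1 and Tube1 of centriole biology (7.34 and 10.6 CPM in control), gave 0 changes with A1 in edgeR (1 at an unadjusted p under 0.05, and 0 in DESeq2). Because tubulin demand follows the cell cycle, proliferation markers were measured beside them. Of 8 tested, 2 rose and 1 fell with A1, where 31.7% of all tested genes rose and 31.1% fell. Mki67, a marker of cycling cells, fell from 567 ± 81.8 to 404 ± 59.6 CPM (log2 fold change -0.49, adjusted p = 0.000212 in edgeR), while Aurka and Cdk1, both mitotic kinases, rose by 0.29 and 0.18 (adjusted p = 0.000154 and 0.000115). With A1 + OVA 2 fell, Mki67 and Bub1, a checkpoint kinase, and 0 rose in edgeR (0 also at an unadjusted p under 0.05 and in DESeq2), beside 27.9% and 29.7% of all tested genes, and Aurka and Cdk1 did not pass (adjusted p = 0.156 and 0.353). The part of cell cycle differences in the tubulin results was not tested.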

How the data were processed

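RNA of 12 MSC samples was analysed, in 3 groups of 4 taken from the sample titles. The authors prepared strand-specific poly(A) libraries, used STAR 2.7 for alignment of paired-end reads to GRCm38 and featureCounts 2.0 for gene counts, which were deposited raw. How multi-mapping reads and reads in overlapping genes were handled is not given in the sources used here. The read counts cover 55487 genes, and 99.53% of their identifiers are in GENCODE M21, which supplied symbols, biotypes, exon lengths and transcript sequences. Every column belongs to a named sample.

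Protein-coding genes were filtered with filterByExpr and TMM-scaled. The quasi-likelihood test of edgeR (4.0.16, under R 4.3.3) was fitted once to all 12 samples, with Benjamini-Hochberg adjustment over 11314 genes. The paper's tool, DESeq2 (1.42.0), was an alternative, as were RLE and upper-quartile scaling, other filters, all biotypes, only the groups compared, the replicate block and each sample left out. Log2 CPM used a prior count of 2. Intervals are 95% intervals between samples, and 4 samples per group limit their precision. Totals were 13702348 to 16881995 counts per sample. Pairs of replicates varied 2.18 to 9 times as much as counting error allows, so that none was a copy. The code was tested on simulated data.

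The members and lists were chosen with earlier results of these data known. Named genes were all members, and in each pathway list up to 4 genes with the largest absolute log2 fold change with A1 among those with an adjusted p under 0.05. Pfdn5, Cct6a, Ttc5, Bub1, Cxcl12, Itgb1, Cd44, Pdgfra, Vcam1, Ly6a, Map2, Snap25, Tubd1, Tube1 and genes named for being at or near 0 were added after their values were seen. The 3 genes most like Tuba1a and Tubb5, the members of each family with the highest mean count, were taken by Pearson's r. The numbers that end the column names follow the group order. No library batch is named, and if libraries were prepared in that order, a preparation effect cannot be told apart from the groups. Some sequence of the members is not reported here.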

Additional observations from a re-analysis of the deposited data

Results flagged for a closer look

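Among 147 groups of 4 samples (49 named genes in 3 groups each), 3 had a sample set apart from the others by more than Dixon's 95% critical value, and chance marks about 1 in 20 groups. None of the 10 tubulin members was among them. Tubg1 was at 38.05 CPM in A1 + OVA sample 1 and at 34 to 34.4 in the others of that group. Kif2a was at 172.2 CPM in A1 sample 1 and at 189.6 to 191.8 in the others. Dctn1 was at 98.4 CPM in A1 sample 3 and at 107 to 108 in the others.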

How the results depend on the processing

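No member lost its call or changed direction against control under DESeq2, RLE or upper-quartile scaling, no filter on low counts, all biotypes, only the groups compared, or any sample left out. A minimum of 10 counts in every sample removed Tubb3. With the fold threshold of 0.5 the calls were 2372 genes and 4 members for A1 against control, 2004 and 4 for A1 + OVA against control, and 136 and 0 for A1 + OVA against A1. With each sample left out in turn, members called in A1 + OVA against A1 ranged from 1 to 3: Tuba1a lost its call in 7 of 12 fits and under upper-quartile scaling (adjusted p = 0.0583), and Tuba1b in 4 of 12. When Tuba1a, Tuba1b and Tuba1c were summed to 1 row, their joint log2 fold change was 0.16 with A1 and -3.26e-05 with A1 + OVA. The sum thus had the opposite sign to Tuba1a with A1. It was close to no change with A1 + OVA, where Tuba1a fell and Tuba1c rose. Samples with the same replicate number did not deviate together (mean r 0.0215 over 12 pairs, from -0.132 to 0.156), so the numbers are not taken as pairs; the replicate block gave 7134, 6580 and 1488 genes and 9, 8 and 3 members. Depth limits Tubb3 (7 to 25 counts) and Tubb2b (1 to 6).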
